A study of Mus musculus with 26 samples.

Results

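Formative stem (FS) cells were compared with epiblast stem cells (EpiSC) kept in AF by asking which stretches of open chromatin were listed in every library of the first type and in no library of the other. Open chromatin was read by ATAC-seq, in which a transposase inserts adapters into accessible DNA, and the authors deposited a list of peaks for each library. Each of 9 lists was cut to its 8044 strongest peaks by the authors' −log10 p, a length set by the shortest list of that sequencing set. Overlapping peaks were merged into 17551 union regions, and a list held a region if a peak of it overlapped by at least 1 bp. By this rule 58 regions were held by all 6 FS lists and no AF EpiSC list (FS-held, 0.33% of union regions), and 99 were held by all 3 AF EpiSC lists and no FS list (AF-held, 0.564%). Those 157 regions are described here. The shares were fixed by the rule and are not a finding. A Fisher's exact test per union region with Benjamini-Hochberg adjustment called 0 regions, with 457 at an unadjusted p below 0.05, and the smallest p that 6 against 3 lists can give is 0.0119. This test uses the same presence calls as the rule. With that smallest p, adjustment over 17551 regions cannot pass so few, so the 0 calls are not informative about the 157 regions.

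The FS libraries came from mouse line FS1 at passage 21 (3 libraries) and line FS2 at passage 29 (3 libraries), both grown in the medium the labels call A3XR. The AF EpiSC libraries were 3 from passage 22. Each started from 50000 cells. Genotype, sex and strain were not given in the labels used here, and neither was whether the libraries of a line came from separate cultures, so p-values measure the spread between libraries, which may be technical. The labels set cell type and medium apart together, with EpiSC in AF as 1 source, so these cannot be told apart. Passage differed as well, with AF EpiSC (22) between FS1 (21) and FS2 (29), and its part was not tested. The same set also held EpiSC in AFX (AFX1, passage 14, and AFX2, passage 16, 3 libraries each) and embryonic stem (ES) cells in 2iL (passage 16, 3 libraries). A second set, marked Rd2, held 2-day epiblast-like cells (EpiLC, 4 libraries, GFP-low sorted), EpiSC in AFX (passage 16, 2 libraries) and ES cells (passage 33, 2 libraries). None of these chose the regions.

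As background, formative pluripotency is the stage between naive ES cells and primed epiblast stem cells, in which the cells have left the naive network and not yet begun germ-layer patterning. A3XR combines a low dose of activin with XAV939, a tankyrase inhibitor that dampens Wnt signalling, and an inhibitor of retinoic acid receptors. AF supplies activin and FGF2, and AFX adds XAV939 to AF. Activin signals through SMAD2 and SMAD3, as Nodal does in the embryo.

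The FS2 lists were the shortest of the 9. The FS1 lists held 26448, 23883 and 31263 peaks, the FS2 lists 14147, 11796 and 12960, and the AF EpiSC lists 15505, 21549 and 24824. All 9 lists had a peak within 20 kb of Pou5f1, the pluripotency factor OCT4. None of the 9 equal-length lists had a peak near Zfp42, the naive marker REX1, whereas all 3 ES lists did. Otx2, the homeobox gene of the formative and primed epiblast, had a peak in 0 FS1, 3 FS2 and 2 AF EpiSC equal-length lists and in all 9 full-length lists. Of 10 markers of feeder fibroblasts, 2 to 5 had a peak within 20 kb in an FS list and 3 to 5 in an AF EpiSC list. Of 10 markers of primitive endoderm it was 1 to 4 against 3 to 4, and of 10 markers of trophoblast 2 to 4 against 3 to 6. At equal length no peak in any of the 9 lists lay near, among others of these lists, the fibroblast genes Col1a2, Twist2, Prrx1 and Postn, the endoderm genes Sox7 and Pdgfra, or the trophoblast genes Elf5, Hand1, Krt7 and Esx1. Col1a1 and Thy1 of the fibroblast list, Lama1 of the endoderm list and Gata3 of the trophoblast list had a peak in all 9. A part of such cells in the region differences was not tested. In these bulk libraries a region open in fewer cells and a region less open in each cell cannot be told apart.

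The sequences of 4 promoters under held regions are given as examples. They show the 250 bases before the start, read 5′ to 3′ along the gene, from RefSeq on GRCm38.p6, the assembly behind the authors' mm10 build. Capitals mark GGGCGG (the GC box), CCAAT (the CCAAT box), ATGCAAAT (the octamer of OCT factors), CTTTGAT (a TCF/LEF site) or AGGTCA (a nuclear receptor site) on either strand. Hormad2 lies on the minus strand at chr11:4441083-4441332 and Dmc1 on the minus strand at chr15:79605110-79605359, both under FS-held regions. Col11a1 lies on the plus strand at chr3:114030290-114030539 and Tmed3 on the minus strand at chr9:89705044-89705293, both under AF-held regions.
Hormad2: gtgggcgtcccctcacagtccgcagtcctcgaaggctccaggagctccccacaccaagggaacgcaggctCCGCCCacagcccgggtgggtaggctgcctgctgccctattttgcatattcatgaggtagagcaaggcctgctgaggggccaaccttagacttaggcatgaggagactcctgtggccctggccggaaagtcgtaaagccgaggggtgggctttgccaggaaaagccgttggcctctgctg
Dmc1: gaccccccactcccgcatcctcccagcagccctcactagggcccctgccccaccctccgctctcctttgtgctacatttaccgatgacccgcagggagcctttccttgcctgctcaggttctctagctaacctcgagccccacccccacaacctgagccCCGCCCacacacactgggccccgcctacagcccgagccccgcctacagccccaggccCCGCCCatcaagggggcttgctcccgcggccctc
Col11a1: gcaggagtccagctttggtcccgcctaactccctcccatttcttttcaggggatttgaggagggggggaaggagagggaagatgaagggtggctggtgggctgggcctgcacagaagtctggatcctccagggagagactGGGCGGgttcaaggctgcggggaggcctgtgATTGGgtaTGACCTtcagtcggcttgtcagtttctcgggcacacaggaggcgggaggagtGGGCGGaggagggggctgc
Tmed3: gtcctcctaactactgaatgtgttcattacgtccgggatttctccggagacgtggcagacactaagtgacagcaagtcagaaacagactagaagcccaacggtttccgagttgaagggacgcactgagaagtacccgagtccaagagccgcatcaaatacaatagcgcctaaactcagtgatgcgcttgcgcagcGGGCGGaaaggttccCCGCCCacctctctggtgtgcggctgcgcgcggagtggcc
Capitals occur in each of these, and the Col11a1 promoter alone of the 4 has the CCAAT and AGGTCA letters as well as GC boxes. Among all 21 promoters of 19 genes under FS-held regions, 15 (71.4%) held CCAAT and 12 (57.1%) GGGCGG. Among 23 promoters of 22 genes under AF-held regions, 6 (26.1%) held CCAAT and 18 (78.3%) GGGCGG. Of all 21262 promoters in the table, 35.4% held CCAAT and 42.6% GGGCGG, and of the 1911 under a region that all 9 lists held, 66.7% and 75.1%. Of the 8517 under any union region, 42.3% held CCAAT and 69.8% GGGCGG. The octamer letters were in 1 promoter of each set (1.58% of all promoters), CTTTGAT in none (2.82%), and AGGTCA in 1 FS-held and 3 AF-held promoters (12.8%). These are matches of letters, and the promoters of a set were not tested against each other.

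The AF-held region with the strongest peaks lay over the start of Col11a1, which encodes a chain of the fibrillar collagen XI (chr3:114030294-114030639). Its −log10 p was 16.2, 15.2 and 16.4 in the 3 AF EpiSC lists, at ranks 994, 1660 and 1350. No full-length FS list had a peak there, including the FS1 list of 31263 peaks. All 6 AFX lists had one, at −log10 p of 12.2, 14.2 and 18.7 in AFX1 and 24.3, 27.6 and 21.6 in AFX2. So did the 3 ES lists, at 7.34, 5.35 and 9.24, all 4 EpiLC lists and both Rd2 AFX lists. In all, 19 of the 20 lists from cells other than FS had this peak, and the exception was an Rd2 ES list of 471 peaks. Within 250 kb on either side, the FS lists had 0 further peaks and the others 0 to 3, so the surroundings hold few peaks with which to compare the locus.

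The FS-held region with the best worst rank over the 6 lists was a 536 bp interval 87.7 kb from A430005L14Rik, with no protein-coding gene within 50 kb (chr4:153868968-153869503). Its −log10 p was 22.6, 19.8 and 20.6 in FS1 and 11.5, 10.9 and 12.4 in FS2. All 6 ranks lay between 279 and 895. Single lists had stronger FS-held peaks at several other regions. Among them were those by Kazn in 2 FS1 lists and by Usp46 in all 3 FS2 lists (15.7, 14.8 and 13.2), the latter named after its values were seen. In the A430005L14Rik region none of the 9 EpiSC lists of the first set had a peak at full length. There 2 of 3 ES lists did (7.06 and 11.5) and none of the 4 EpiLC or 2 Rd2 AFX lists did. Peaks within 250 kb of this region were listed in all 9 of those EpiSC lists (7 to 12) and in the FS lists (1 to 16). The A430005L14Rik and Col11a1 regions were also the only ones, 1 of 58 and 1 of 99, that stayed held under all 5 ways of making the lists (by −log10 p, by fold enrichment, 5000 peaks each, full length, or −log10 q of at least 5).

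**Figure D1:**
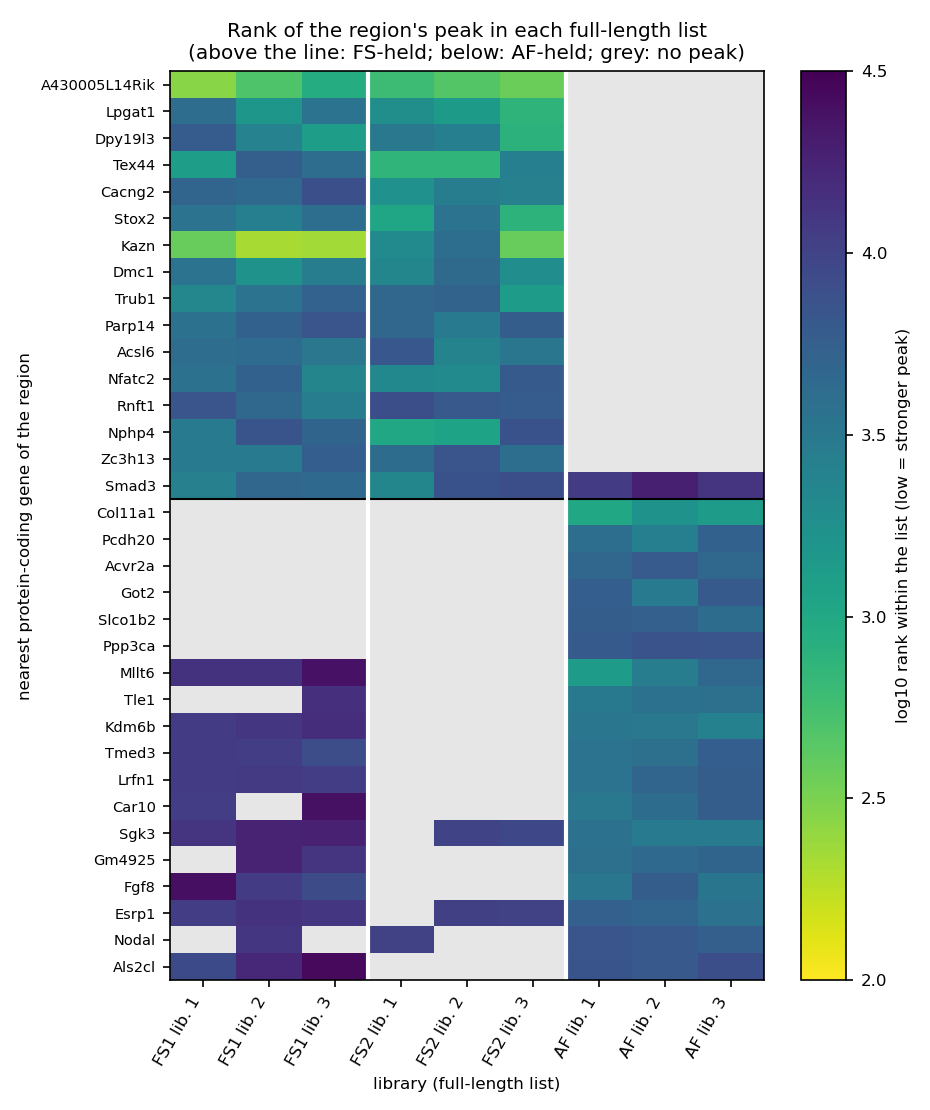
Each row is a named held region that is reported here, labelled by its nearest protein-coding gene, and each column a library; colour gives the log10 rank of its peak in the full-length list and grey no peak. The A430005L14Rik and Kazn rows are among the brightest above the line and Col11a1 among the brightest below it, and below it FS1 columns are filled far more often than FS2 columns.

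At full length, 15 of the 58 FS-held regions (25.9%) still had no peak in any AF EpiSC list. One of them lay 387 kb from Kazn, which encodes a desmosome-associated adaptor. Its −log10 p was 21.2, 23.7 and 28.2 in FS1 and 8.64, 6.55 and 12.3 in FS2, so that every FS1 value was above every FS2 value. One AFX1 list, 1 ES list and 2 EpiLC lists also had it.

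Dmc1, the recombinase of meiotic recombination, had its start under an FS-held region (chr15:79605013-79605516). The peak's −log10 p was 11.1, 14.5 and 14.6 in FS1 and 8.43, 6.42 and 8.32 in FS2. It was absent from every AF EpiSC and ES list, and present in all 4 EpiLC, 1 of 3 AFX1, 2 of 3 AFX2 and 1 of 2 Rd2 AFX lists. Inside Trub1, a pseudouridine synthase gene, the values were 13.2, 11.2 and 11.2 in FS1 and 6.81, 6.15 and 9.07 in FS2. Inside Acsl6, an acyl-CoA synthetase gene, they were 10.6, 10.4 and 13.7 in FS1 and 6.08, 7.49 and 7.15 in FS2.

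The Trub1 region had no peak in any EpiSC or ES list of the first set and was in 2 EpiLC lists. The Acsl6 region was in no list of the series other than the 6 FS lists, and Meikin, which encodes a meiotic kinetochore protein, lies within 50 kb of it. The same held for a region 87 kb from Nphp4, a gene of the ciliary transition zone. Its −log10 p was 11.9, 8.42 and 11.4 in FS1 and 10.2, 8.93 and 5.47 in FS2. A region 39.4 kb from Tex44 reached 15.8, 9.38 and 12.5 in FS1 and 11.1, 9.8 and 7.61 in FS2, and outside FS it was listed in 3 EpiLC libraries alone. The FS1 and FS2 values of −log10 p overlapped for the Tex44 and Nphp4 regions, and every FS1 value was above every FS2 value for Trub1 and Acsl6. Ranks within the full-length lists did not keep that order. The Trub1 ranks were 2216, 3548 and 5154 in FS1 and 4677, 5061 and 1313 in FS2. For Acsl6 they were 4053, 4265 and 3260 in FS1 and 6592, 2385 and 3289 in FS2.

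The other 8 of the 15 lay near or inside Lpgat1 (an acyltransferase), Dpy19l3 (a C-mannosyltransferase), Cacng2 (an AMPA receptor auxiliary subunit), Stox2, Parp14 (an ADP-ribosyltransferase), Nfatc2 (a calcineurin-controlled factor), Rnft1, and Zc3h13 (part of the RNA m6A writer complex). Across the AFX libraries they were uneven. The Lpgat1, Dpy19l3, Nfatc2 and Rnft1 regions were in all 3 full-length AFX2 lists, and in 0, 1, 1 and 1 AFX1 lists. In all, 5 of the 58 FS-held regions were in no EpiSC list of either medium, and these are the regions by Tex44, Acsl6, Trub1, Nphp4 and A430005L14Rik. Across the 58, 37 (63.8%) were in no full-length ES list, and 29 (50%) were in at least 3 of the 4 EpiLC lists. The AF-held regions were similar in both, with 59 of 99 (59.6%) and 55 of 99 (55.6%), so neither count is particular to FS-held regions.

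The FS-held region tied to the lists of pathway genes was 45.3 kb from Smad3, the transducer of activin signals. Its −log10 p was 12.5, 10.1 and 12.1 in FS1 and 8.43, 5.35 and 5.35 in FS2. All 3 full-length AF EpiSC lists also had it, at 5.49, 4.44 and 5.77, and ranks 11652, 19255 and 13232. The FS2 and AF EpiSC values overlapped, and what parted them was rank within lists of different length. Hormad2, a gene of the meiotic chromosome axis, and St6galnac3, a sialyltransferase gene with a pair of FS-held regions, are named after their values were seen. The peak over the Hormad2 start had −log10 p of 10.8, 11.7 and 14.05 in FS1 and 8.79, 9.2 and 8.71 in FS2, against 4.85 and 4.61 in 2 AF EpiSC lists and none in the other.

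Of the 99 AF-held regions, 7 had no peak in any full-length FS list. Beside the Col11a1 region, 5 are described. Of these, 4 lay far from any gene. Regions 854 kb from Pcdh20 (a protocadherin), 1445 kb from Acvr2a (an activin receptor), 1501 kb from Got2 and 113 kb from Ppp3ca (the calcineurin catalytic subunit) had no protein-coding gene within 50 kb. At such distances the nearest gene is a label of position only. The remaining region was 6.9 kb from Slco1b2, a hepatic anion transporter gene. All 5 were in every AFX2 list and in 1 to 3 AFX1 lists, and all were absent from the ES lists of the first set. In EpiLC, each was in 2 to 4 of the 4 lists.

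Fgf8, an FGF ligand of the gastrulating embryo, had an AF-held region 5 bp from its gene body (chr19:45742947-45743263). The −log10 p was 10.5, 9.02 and 11.6 in AF EpiSC, 3.79, 6.67 and 8.75 in full-length FS1, and no FS2 list had a peak there. All AF EpiSC values exceeded all FS1 values, though ranks by the same −log10 p chose the region. At full length the peak was in all 6 AFX lists and in no ES, EpiLC or Rd2 AFX list. At equal length it was in 0 AFX1 and 2 AFX2 lists, so AFX1 then lacked it as FS1 did. The best FS1 rank was 8450, past the rank limit. Of the 5 ways of making the lists, the region was held under 1 only, the ranking by −log10 p.

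A region 11.6 kb from Nodal (chr10:61406039-61406373) gave 7.43, 8.59 and 9.17 in AF EpiSC, 6.29 in 1 FS1 list and 5.09 in 1 FS2 list. It was in no ES list and in 1 EpiLC list. A region in Als2cl, within 50 kb of Tdgf1, the Nodal co-receptor, gave 7.3, 8.62 and 7.66 in AF EpiSC and 7.39, 5.42 and 4.24 in FS1, with no FS2 peak. There the AF EpiSC and FS1 values overlapped. The region over the start of Esrp1, an epithelial splicing factor, was in 5 of 6 full-length FS lists.

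The remaining named AF-held regions were chosen for their ranks in AF EpiSC. By the rule they lay past the rank limit or had no peak in every FS list. The same −log10 p made that choice, so the values below are a description. The region 0.986 kb from Mllt6, a partner of the histone methyltransferase DOT1L, had −log10 p of 14.8, 12.4 and 10.1 in AF EpiSC and 5.85, 6.08 and 4.69 in FS1. Inside Kdm6b, a demethylase of histone H3 lysine 27, the values were 10.6, 11.9 and 13.0 against 6.4, 6.29 and 6.41. The region 81.7 kb from Tle1, a corepressor, gave 10.9, 11.2 and 11.1 and had 1 FS1 peak at 6.56; of the other libraries, 1 AFX2 list alone had it. No FS2 list had any of these 3. Tmed3, Lrfn1, Car10 and Gm4925 regions likewise had no FS2 peak, with 3, 3, 2 and 2 FS1 peaks, and the Sgk3 region had 3 FS1 and 2 FS2 peaks. Hes1, the Notch effector gene named after its values were seen, had a pair of AF-held regions, 0.938 and 2.42 kb from the gene.

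Whether FS1 and FS2 agreed was read in the full-length lists. FS1 lists overlapped 81.8%, 82.8% and 88.9% of the 99 AF-held regions, and FS2 lists 29.3%, 14.1% and 24.2%. The lines did not overlap in this measure. Of the 99 regions, 72 were in every FS1 list and 4 in every FS2 list, while 7 were in no FS1 list and 54 in no FS2 list. The lines agreed, with none or all of the lists in both, on 11 regions. They were fully opposed, with every FS1 and no FS2 list, on 30 (30.3%; 19.1% of AF-held regions chosen by fold enrichment and 12.0% of those chosen with 5000 peaks), and 0 regions were in more FS2 than FS1 lists. So at full length 92 of the 99 had a peak in at least 1 FS1 list, ranked past the limit of 8044, and 7 were absent from both lines.

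Length moves with this result. The longest FS2 list (14147) was shorter than the shortest FS1 list (23883), and the FS2 lists also overlapped fewer of all union regions (57.9 to 65.4%) than the FS1 lists (84.05 to 89.3%). Of the 5363 union regions held by every AF EpiSC list, FS1 full-length lists overlapped 99.0 to 99.4% and FS2 lists 81.3 to 90.2%. The part of list length in the split between lines was not tested.

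FS-held regions were read likewise in full-length AF EpiSC lists. Of the 58, 15 were in none of the 3, 13 in 1, 13 in 2 and 17 in all 3. The lists overlapped 34.5%, 56.9% and 63.8% of them, in the order of their lengths. Of the 2874 union regions held by all 6 FS lists, each full-length AF EpiSC list overlapped 98.1 to 99.1%. The 26 regions in 1 or 2 lists and the 17 in all 3 were thus parted from AF EpiSC by the rank limit in those lists, not by the lack of a peak.

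**Figure D2:**
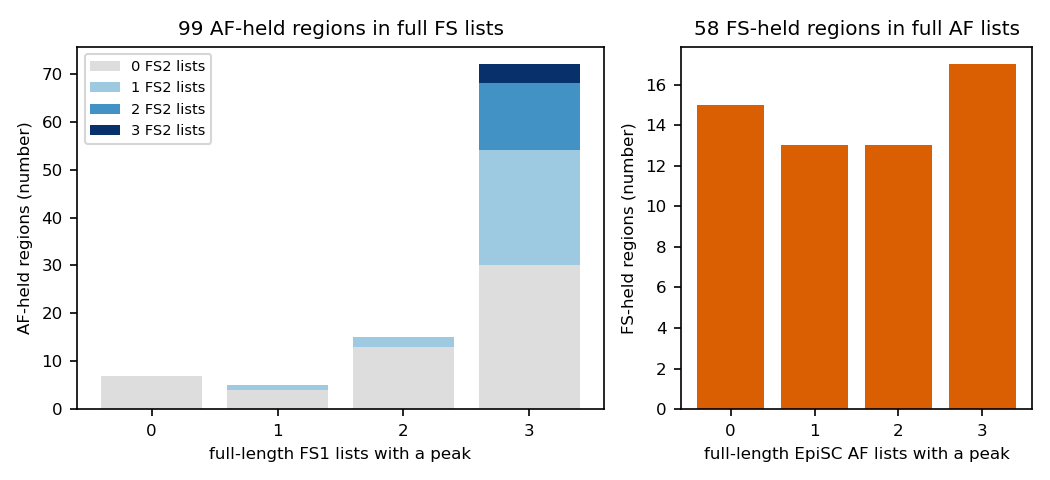
Left, the 99 AF-held regions by the number of full-length FS1 lists with a peak (bars) and FS2 lists (colours), in numbers of regions; right, the 58 FS-held regions by the number of full-length AF EpiSC lists. The tallest bar at left, 72 regions in all 3 FS1 lists, is mostly regions with 0 or 1 FS2 list, and the bars at right run from 13 to 17.

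The rank margins were narrow. The worst rank among the holding lists had a median of 6515.5 for FS-held and 6948 for AF-held regions, against the limit of 8044. It was above 7000 for 22 of 58 and 47 of 99. The best rank in the other type was at most 9000 for 13 and 29. Just inside and outside the limit, the nearest ranks were 7956 and 8087 for FS-held regions and 8043 and 8055 for AF-held regions.

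Each line alone against AF EpiSC gave more regions, since fewer lists had to agree. FS1 against AF EpiSC gave 243 regions held by FS1 and 224 by AF EpiSC, of 13829 union regions. FS2 gave 324 and 560 of 16263. The share of all those union regions that each group overlapped is not given here, so the overlaps below compare groups without a general share beside them. Both comparisons share the AF EpiSC lists. At equal length the 3 FS2 lists overlapped 50.5% ± 1.04 (SD, n = 3) of the 243 regions that FS1 held, compared with 25.2% ± 1.71 in AFX1, 29.8% ± 3.43 in AFX2 and 14.7% ± 1.19 in ES. In the other direction, FS1 lists overlapped 40.4% ± 1.07 of the 324 regions that FS2 held, AFX1 35.6% ± 0.178, AFX2 20.99% ± 1.35 and ES 22.4% ± 1.25. At equal length the range of the other FS line lay above the ranges of AFX1, AFX2 and ES in each direction. At full length this held for FS1 on the regions of FS2 (93.8 to 97.2%, against 70.1 to 87.0% in AFX1 and 82.1 to 85.8% in AFX2). It did not hold for FS2 on the regions of FS1, where FS2 lists overlapped 60.5 to 67.9%, AFX1 lists 45.7 to 61.3% and AFX2 lists 80.7 to 84.4%.

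On the AF EpiSC side, the range of the other FS line did not part from those of AFX1, AFX2 and ES together. No general share stands beside these overlaps either, so neither side shows a trait particular to FS. Of the 224 regions that AF EpiSC held against FS1, FS2 lists overlapped 34.4% ± 4.02 (SD, n = 3), AFX1 40.2% ± 3.89, AFX2 43.6% ± 3.35 and ES 36.6% ± 1.34. The FS2 lists were below AFX2 and overlapped the ranges of AFX1 and ES. Of the 560 held against FS2, FS1 overlapped 61.6% ± 2.79, AFX1 56.1% ± 3.52, AFX2 80.8% ± 2.07 and ES 35.7% ± 0.309. There FS1 was above ES, below AFX2 and overlapped the range of AFX1.

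The libraries that did not choose the 157 regions were then read at equal length. AFX1 lists overlapped 36.2%, 31.0% and 39.7% of the FS-held regions and 23.2%, 28.3% and 26.3% of the AF-held regions. AFX2 lists overlapped 32.8%, 46.6% and 27.6% of FS-held and 58.6%, 55.6% and 58.6% of AF-held regions. ES lists overlapped 19.0%, 19.0% and 24.1% and then 23.2%, 20.2% and 16.2%. For comparison, they overlapped 42.5 to 43.6% (AFX1), 42.6 to 43.7% (AFX2) and 31.0 to 31.8% (ES) of all union regions. Within each AFX1 list the share of FS-held regions was above that of AF-held regions, and within each AFX2 list it was below, while the mean share of FS-held regions was 35.6% in both lines. Both held sets lay below the general share in AFX1 and ES, and in AFX2 the AF-held share lay above it.

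The lean of a library, its percent of AF-held minus its percent of FS-held regions, was 6.12 ± 19.2 points (SD, n = 6) in AFX and −0.824 ± 6.38 (n = 3) in ES. The difference of 6.94 points did not pass the exact two-sided permutation test over libraries (p = 0.583, adjusted p = 0.583 over 2 lean comparisons). At full length it was 18.0 points with exact permutation p = 0.0119, adjusted p = 0.0238. This p treats libraries as units, though the 6 AFX lists came from 2 lines and the 3 ES lists from a single source. It is therefore no test between lines. The full-length AFX lists (17701 to 29575 peaks) were all longer than the ES lists (8044 to 10961). The lean of every AFX1 list was then above 0 (mean 21.1 points, against 16.6 in AFX2), so the order of the 2 lines at equal length did not hold. Among the FS-held regions, 3 were in every AFX list at equal length and 18 in none; among the AF-held regions 6 and 14. At full length, 95 of the 99 AF-held regions were in every AFX2 list and 59 were in no ES list. Of the 58 FS-held regions, 41 were in every AFX2 list and 37 in no ES list. Full-length AFX2 lists overlapped 82.0 to 85.5% of all union regions and ES lists 31.0 to 37.8%.

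In the second set, read as deposited, the 4 EpiLC lists overlapped 58.6%, 75.9%, 24.1% and 69.0% of the FS-held regions. They overlapped 49.5%, 69.7%, 37.4% and 75.8% of the AF-held regions, and 44.3%, 69.7%, 33.7% and 70.9% of all union regions. The 2 Rd2 AFX lists overlapped 50% and 44.8% of FS-held and 40.4% and 37.4% of AF-held regions, and 49.5% and 47.5% of all union regions. Lean was −8.52 ± 1.51 points (SD, n = 2) in Rd2 AFX and 1.18 ± 10.6 (n = 4) in EpiLC, and the ranges overlapped. The difference of −9.71 gave an exact permutation p of 0.2, adjusted 0.4, in a design whose smallest p is 0.0667.

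**Figure D3:**
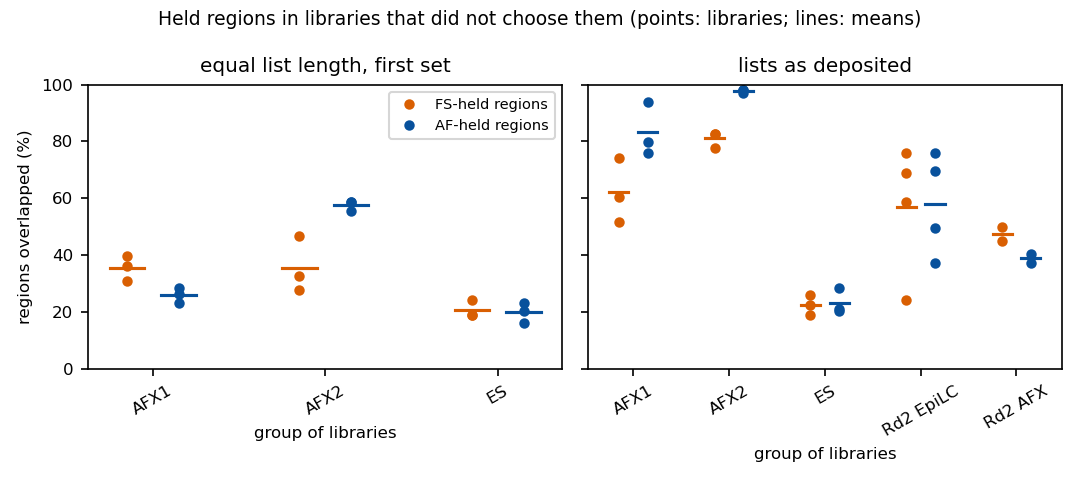
Percent of the FS-held (orange) and AF-held (blue) regions overlapped by each library that did not choose them, at equal list length (left) and as deposited (right), with points for libraries and lines for group means. At equal length AFX2 has blue points at 55.6 to 58.6% above its orange points, AFX1 has the reverse order within each list, and ES has both between 16.2 and 24.1%.

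Pathway genes were read by whether a list had a peak within 20 kb of the gene. Over all genes at equal length, 14709 had a peak in any of the 9 lists. Of these, 37 (0.252%) had one in every FS list and no AF EpiSC list and 43 (0.292%) the reverse, and Fisher's exact test with Benjamini-Hochberg adjustment called 0, with 283 at an unadjusted p below 0.05. At full length 18 of 18598 (0.0968%) and 17 (0.0914%) were parted in these ways, again with 0 called and 110 at an unadjusted p below 0.05. The smallest p of Fisher's exact test was 0.0119 at both lengths. Adjustment over this many genes cannot pass so few at that value, so the 0 calls are not informative. Parp14 and Trub1 on the FS side, and Col11a1 and Slco1b2 on the AF EpiSC side, were parted at both lengths. Of the gene lists, no gene was in every FS list and no AF EpiSC list, and Fgf8 was among those with the reverse.

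Among 14 formative genes the share of lists with a peak was higher in AF EpiSC for 9, equal for 5 and higher in FS for 0, with a median difference of −25 points. Over all genes it was higher in FS for 4392, higher in AF EpiSC for 4676 and equal for 12815, with a median of 0. Zic2 and Zic5, zinc-finger factors of the epiblast, each had a peak in 0 FS1, 1 FS2 and 3 AF EpiSC lists. Their equal-length counts were the same in every group, so they may rest on the same peaks and not be separate cases. Lef1, the Wnt-responsive factor, had one in 0, 2 and 3. Dnmt3b, a de novo DNA methyltransferase, and Tcf15, a basic helix-loop-helix factor, each had one in 3 FS1, 0 FS2 and 3 AF EpiSC lists, so the lines parted there. At full length 4 of the 14 were higher in AF EpiSC, and Zic2, Lef1, Dnmt3b and Tcf15 had a peak in all 9 lists.

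Of 13 naive genes, 4 were higher in FS, 2 in AF EpiSC and 7 equal at equal length. The order turned at full length, with 2 higher in FS and 7 in AF EpiSC. All genes also leaned to AF EpiSC at full length (2813 higher in FS and 5453 in AF EpiSC). Tfcp2l1, a naive network factor, had a peak in 3 FS1, 2 FS2 and 1 AF EpiSC lists, and Nanog in 2, 2 and 1. Of 10 core pluripotency genes, 6 were higher in AF EpiSC, 4 equal and 0 higher in FS (median −16.7 points). Tdgf1 had a peak in 1 FS1, 0 FS2 and 3 AF EpiSC lists, Sox2 in 2, 0 and 3, and Lin28b, the let-7 repressor, in 0, 0 and 2.

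Nodal and activin genes came next. Of 19, 8 were higher in AF EpiSC, 4 in FS and 7 equal (median 0). Among the ligands, Nodal had a peak in 0 FS1, 1 FS2 and 3 AF EpiSC lists and Inhba, the activin subunit, in 0, 0 and 2. Smad7, the inhibitor of the pathway, also had 0, 0 and 2, while Furin, a protease that matures Nodal, had 0, 2 and 0. At full length all 4 had a peak in every FS1 and every AF EpiSC list, and Smad7 had none in FS2.

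In the FGF and ERK list of 24 genes, 12 were higher in AF EpiSC, 3 in FS and 9 equal (median −8.33 points). Dusp4, an ERK phosphatase, had a peak in 0 FS1, 0 FS2 and 2 AF EpiSC lists, Egr1, an immediate early target, in 2, 0 and 3, and Spry2, a feedback inhibitor, in 1, 1 and 3. Of 34 Wnt genes, 13 were higher in AF EpiSC, 7 in FS and 14 equal (median 0). The receptor gene Fzd10 had a peak in 1, 0 and 3 lists and the ligand gene Wnt3a in 1, 1 and 3. Of 17 BMP and Id genes, 10 were higher in AF EpiSC and 4 in FS (median −16.7 points), with Bmp4 at 0, 0 and 2.

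Retinoic acid genes split both ways at equal length, with 7 of 24 higher in FS, 8 in AF EpiSC and 9 equal, and at full length 4 were higher in FS and 12 in AF EpiSC. Over all genes at full length, 2813 were higher in FS and 5453 in AF EpiSC, so the full-length lists lean to AF EpiSC in general. Rarb, a receptor gene that is itself a retinoic acid target, had a peak in 3 FS1, 3 FS2 and 1 AF EpiSC lists. Meis2, a homeobox gene, had 0, 0 and 2. Rarg, another receptor gene, had 0, 3 and 3, so FS2 matched AF EpiSC and FS1 did not. Of 18 primed and germ-layer genes, 8 were higher in AF EpiSC and 4 in FS, with Sox17 at 0, 0 and 2 and Sox1 at 0, 3 and 0. Of 15 epithelial and mesenchymal genes, 4 were higher in AF EpiSC and 3 in FS. Epcam had a peak in 2, 0 and 3 lists, and Cdh1, encoding E-cadherin, in 3, 3 and 2.

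**Figure D4:**
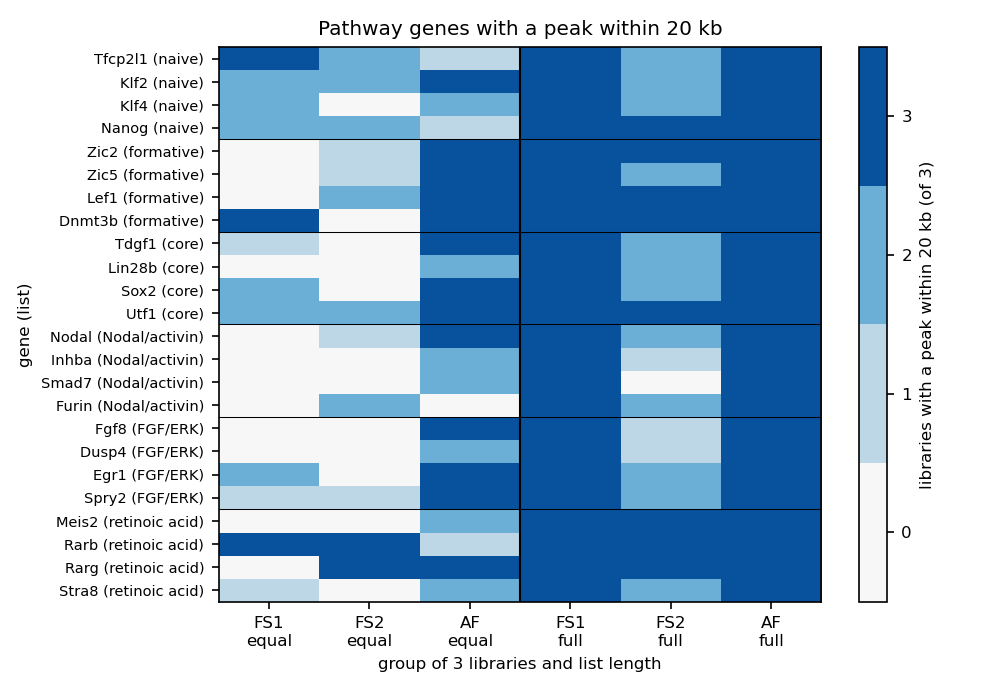
For genes of 6 lists, up to 4 each with the largest differences in share among those reported, colour gives the number of the 3 libraries of FS1, FS2 and AF EpiSC with a peak within 20 kb, at equal length (left 3 columns) and at full length (right 3 columns). Nearly all FS1 and AF EpiSC cells are filled at full length, and the FS2 column keeps the pale ones, among them Smad7 at 0.

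In position, the held regions lay farther from gene ends than regions common to all 9 lists. A gene end here is either boundary of the gene body, so start sites are included. Of the FS-held regions 32.8% (19) and of the AF-held regions 42.4% (42) lay within 1 kb of a protein-coding gene's end, compared with 69.3% of the 2508 regions held by all 9 lists and 48.8% of all union regions. Over 10 kb from any such gene were 24.1% (14) of FS-held, 26.3% (26) of AF-held, 9.65% of common and 17.9% of all union regions. Median widths of the FS-held and AF-held regions were 389.5 and 450 bp, between those of all union regions (359 bp) and of the common regions (604 bp). Within 50 kb, 50 FS-held and 85 AF-held regions had a protein-coding gene, 140 and 242 distinct genes in all. These properties were not tested.

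Chromosome 15 carried 8 of the 58 FS-held regions (13.8%) and 2 of the 99 AF-held regions (2.02%), with 4.84% of all union regions. The FS2 lists themselves had 5.86 to 6.13% of their equal-length peaks on chromosome 15, compared with 4.34 to 4.54% in FS1 and 3.98 to 4.21% in AF EpiSC, so the line differed there from FS1 over all its peaks. A part of that excess in the 8 regions was not tested. Chromosome 4 carried 14 AF-held regions (14.1%), against 4 FS-held (6.90%) and 7.16% of the union, while its share of the lists was 6.90 to 7.26% in all 9.

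**Figure D5:**
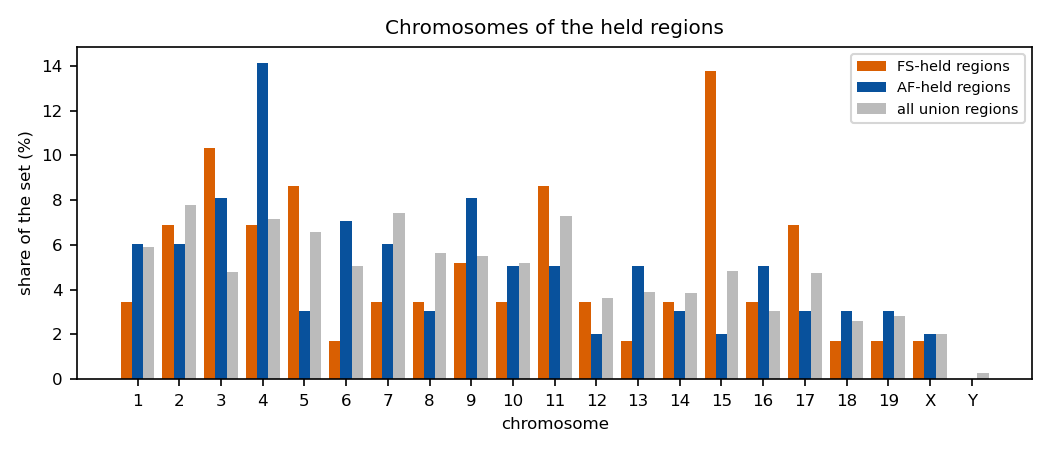
Share of the 58 FS-held regions, the 99 AF-held regions and all union regions on each chromosome, in percent. FS-held regions stand highest on chromosome 15 (13.8%) and AF-held regions on chromosome 4 (14.1%).

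Over whole lists, no difference between FS and AF EpiSC passed in the 3 measures tested by exact two-sided permutation over libraries. The log2 number of peaks was 14.19 ± 0.60 (SD, n = 6) in FS and 14.31 ± 0.35 (n = 3) in AF EpiSC (exact permutation p = 0.786, adjusted p = 0.786). Median peak width was 311 ± 59.4 bp and 342 ± 18.5 bp (exact permutation p = 0.452, adjusted 0.679). The share of peaks over 10 kb from a gene was 13.2% ± 1.42 and 12.0% ± 0.25 (exact permutation p = 0.286, adjusted 0.679). The FS lines lay on opposite sides of AF EpiSC in number and width, which widens the FS spread.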

How the data were processed

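ATAC-seq peak lists were deposited by the authors, 1 per library (26 in the series). Per the submitters' processing notes, reads were processed with Trim Galore, Bowtie, Picard and MACS2 on mm10, with no versions or roles given. Deposited broadPeak columns are a score, a fold enrichment, and −log10 p and −log10 q values, per the files' broadPeak layout. The lowest −log10 q is just above 1 in the 9 lists compared, and the shortest peak 150 bp, so absence means no peak past the authors' threshold. Read depth was not given in the sources used here; list length stands in for it and limits the precision, since shorter lists miss more regions. Replicates shared at most 0.0540% identical peaks. The lists used the deposited −log10 p for ranking, and the score column was not used.

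Union regions, presence and tests were computed with Python 3.11.15, pandas 2.3.3 and scipy 1.17.1, and tested on simulated data. Genes were the 21896 protein-coding genes of RefSeq on GRCm38.p6. Region values are those of the strongest overlapping peak. Tests were exact permutations over libraries and Fisher's exact tests with Benjamini-Hochberg adjustment. The regions and gene lists were chosen with earlier results of these data known. Named regions were those with no peak in the other type at full length, then those with the best worst rank to 15 per direction, and those within 50 kb of a listed gene; named list genes were the up to 4 per list with the largest difference in share, and 5 check genes. Alternatives were another ranking, 5000 peaks, full length, −log10 q of at least 5, 50% overlap, a 200 bp merging distance, each line alone and each replicate left out. Some loci and genes met by these rules are not reported here.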

Additional observations from a re-analysis of the deposited data

Results flagged for a closer look

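The FS lines moved apart from AF EpiSC in opposite directions in 2 library measures. The log2 number of peaks, as a difference from the AF EpiSC mean, was 0.42 in FS1 and −0.65 in FS2. Median peak width at equal length differed from AF EpiSC by 22 bp in FS1 and by −84.7 bp in FS2. In lean toward AF-held regions at equal length, every AFX1 list was below 0 (mean −9.71 points) and every AFX2 list above it (mean 21.9 points). At full length every list of both lines was above 0 (means 21.1 and 16.6 points). These differences between lines were not tested.

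Among the 6 AFX lists, the second AFX2 library had the highest share of peaks over 10 kb from a gene, 13.3%, with a gap to the others beyond Dixon's 95% critical value. In all 13 groups of values were examined for such samples, and chance gives about 1 in 20.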

How the results depend on the processing

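The number of held regions follows the list length and threshold. FS-held and AF-held regions numbered 33 and 75 with 5000 peaks per list, 6 and 68 at −log10 q of at least 5, and 71 and 154 at full length; ranking by fold enrichment gave 47 and 94, a 50% overlap 58 and 101, and merging within 200 bp 58 and 99. FS1 alone gave 243 FS-held and 224 AF-held regions of 13829 union regions, and FS2 alone 324 and 560 of 16263. Leaving out each replicate gave 76 to 97 FS-held and 115 to 204 AF-held regions; fewer lists then have to agree, and the counts rise by construction, most without the first AF EpiSC replicate (204 AF-held). Of the 58 FS-held regions, 37 were held again by fold enrichment, 12 with 5000 peaks, 15 at full length and 3 at −log10 q of at least 5; of the 99 AF-held regions, 49, 13, 7 and 39 were. The share of AF-held regions in every FS1 and no FS2 list, 30.3%, was 19.1% by fold enrichment and 12.0% with 5000 peaks, both chosen after seeing the data; the cause was not tested.

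The difference in the share of distal peaks was −0.0704 points beyond 50 kb in place of 10 kb. The lean of AFX minus ES was 18.0 points at full length (exact permutation over libraries, not lines, adjusted p = 0.0238). That of Rd2 AFX minus EpiLC was 3.56 at −log10 q of at least 5. The causes were not tested. Leaving out each replicate gave −0.31 to 0.03 for log2 number of peaks (0.02 without the second FS2 replicate and 0.033 without the third AF EpiSC replicate), −44.3 to −17.5 bp for width, 0.917 to 1.55 points for distal share, 1.97 to 10.8 for lean and −13.1 to −5.69 for Rd2 lean, none past the threshold. Replicate numbers gave no pairing (correlations of same-numbered libraries from −0.0124 to 0.00456). With the replicate number as a block, exact permutation gave adjusted p = 0.852 for the difference of −0.11 in log2 peak number, 0.786 for the −31.3 bp in width, 0.679 for the 1.24 points in distal share and 0.667 for the 6.94 points in lean.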
